A study of Mus musculus with 11 samples.

Results

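Cadherins and protocadherins are cell-surface proteins through which cells adhere to cells that carry a matching protein. The members described here are the genes with a symbol of Cdh and a number, or beginning with Pcdh, that were read by a probe set annotated to a single gene. There were 57 such genes among 19938 with a probe set of a single symbol on Affymetrix Mouse Gene 1.0 ST arrays, 23 numbered cadherins and 34 protocadherins. Where several probe sets read a gene, the brightest over all arrays was taken, which concerned 4 members. Of the 57, 44 had a mean level above the 40th percentile of all genes (log2 6.99) and were tested, and 13 were not.

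The study measured RNA of the nucleus accumbens, enriched in its shell, in 5 Rarb-null mutant mice and 6 wild-type (WT) littermates, 1 array per mouse. The tissue was punched on both sides from frozen sections. Rarb encodes retinoic acid receptor beta, a nuclear receptor that binds DNA in a pair with a retinoid X receptor and that is abundant in the striatum, of which the accumbens is the ventral part. All mice were males of 4 to 5 months without behavioural testing, from heterozygous crosses on a mixed background of C57BL/6J and 129SvEms/j, and no further allele or agent is named in the labels. The extraction protocol gives 6 for the null and 5 for the WT group, and the grouping here follows the titles. Values are log2 levels after robust multi-array analysis (RMA), and each difference is a Rarb-null mean minus the corresponding WT mean. Precision is limited by having 5 and 6 arrays. In a punch of tissue fewer cells of a type and less RNA per cell cannot be told apart.

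Rarb read 9.88, 9.86, 10.01, 9.99 and 9.72 in the Rarb-null arrays, against 11.70 to 11.81 in the WT arrays. The genotypes were thus widely separated, in the direction of the labels (difference -1.86, SE 0.047, limma Benjamini-Hochberg adjusted p = 4.44e-11). All 12 measured markers of striatal projection neurons passed the filter on low levels. Their mean level ran from 11.33 to 11.46 in Rarb-null and from 11.59 to 11.67 in WT arrays. Of the 11963 genes tested, 905 were higher and 1436 lower in Rarb-null arrays at an adjusted p of 0.05. Which part of Rarb is deleted was not stated in the labels. The balance of directions depended on the scale of the arrays, with 1677 higher and 939 lower after each array was centred on the median of its genes, 1184 and 1142 after repeated quantile normalisation and 1147 and 1218 after cyclic loess.

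Classical cadherins have 5 extracellular repeats that bind calcium and a cytoplasmic tail that holds catenins, which connect the contact to actin. Type I cadherins, such as N-cadherin at synapses, are broadly expressed, whereas type II cadherins mark particular groups of neurons and their connections. Protocadherins lack the catenin-binding tail. The delta protocadherins are encoded by scattered genes, whereas the alpha, beta and gamma protocadherins are encoded in tandem in a cluster, from which each neuron is known to express a small set of isoforms.

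Promoters of members whose arrays did not overlap between genotypes are shown first, because retinoic acid receptors act through DNA sites. Of the 57 members, 22 had a promoter in the RefSeq table of build GRCm38.p6, with 25 windows of 300 bases, from 250 before to 50 after a start. The hexamers AGGTCA and AGTTCA, which are among the forms of the sites to which retinoic acid receptors bind, were searched on both strands. Other forms were not searched, so a window without a match can still hold a site. Matches of the hexamers can share an end base, and each paired motif searched contains its hexamer. Capitals mark each match, and all sequences run 5′ to 3′ on the strand of the gene. The promoters of Pcdh18 (chr3:49757267-49757566, minus strand) and Pcdh19 (chrX:133688944-133689243, minus strand) belong to the delta protocadherins that rose. Those of Cdh8 (chr8:99416422-99416721, minus strand) and Cdh18 (chr15:23036213-23036512, plus strand) belong to the type II cadherins with the largest falls.
Pcdh18: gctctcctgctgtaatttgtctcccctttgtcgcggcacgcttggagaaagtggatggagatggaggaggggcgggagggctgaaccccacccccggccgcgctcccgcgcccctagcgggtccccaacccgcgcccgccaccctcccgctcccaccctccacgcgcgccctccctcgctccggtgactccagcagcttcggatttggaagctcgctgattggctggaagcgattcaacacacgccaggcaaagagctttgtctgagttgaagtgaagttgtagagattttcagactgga
Pcdh19: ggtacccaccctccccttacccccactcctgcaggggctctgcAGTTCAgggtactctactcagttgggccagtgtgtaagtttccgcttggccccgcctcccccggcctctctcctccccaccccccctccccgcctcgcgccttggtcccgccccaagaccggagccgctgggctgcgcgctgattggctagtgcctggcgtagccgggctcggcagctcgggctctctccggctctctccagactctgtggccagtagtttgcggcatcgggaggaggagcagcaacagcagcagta
Cdh8: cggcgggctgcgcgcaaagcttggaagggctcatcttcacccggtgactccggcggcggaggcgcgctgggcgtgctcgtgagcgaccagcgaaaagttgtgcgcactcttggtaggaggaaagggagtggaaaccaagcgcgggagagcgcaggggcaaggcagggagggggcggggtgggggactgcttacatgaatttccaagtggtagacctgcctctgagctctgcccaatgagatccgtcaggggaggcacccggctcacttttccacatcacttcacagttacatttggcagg
Cdh18: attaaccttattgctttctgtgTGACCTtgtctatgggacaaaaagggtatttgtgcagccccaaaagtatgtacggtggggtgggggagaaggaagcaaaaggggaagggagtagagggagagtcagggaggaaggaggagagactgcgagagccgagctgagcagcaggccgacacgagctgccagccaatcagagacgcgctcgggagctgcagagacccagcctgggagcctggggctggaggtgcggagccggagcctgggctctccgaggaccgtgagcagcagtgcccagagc
The Pcdh19 window held AGTTCA once, with its first base 207 bases before the start, and the Cdh18 window held AGGTCA once on the opposite strand, 228 bases before the start. The windows of Pcdh18 and Cdh8 held neither hexamer. Over all members, 1 of 25 windows held AGGTCA and 5 held AGTTCA. Of all 32851 windows in the table, 16.3% held AGGTCA and 4597 held AGTTCA. Paired copies with 5 bases between them, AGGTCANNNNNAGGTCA and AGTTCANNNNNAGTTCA, were in 0 of the 25 windows and in 0.00913% and 0.0244% of all windows. Pairs of unlike hexamers were not searched.

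Members of the family changed in both directions. Of the 44 tested, 7 rose and 10 fell in Rarb-null arrays (limma, Benjamini-Hochberg adjusted p under 0.05 over all genes tested), or 38.6%. Over all genes the share called was 19.6%, with 7.56% higher and 12% lower. For 12 of the 44 members (27.3%) the ranges of the genotypes were separate, as for 11.2% of all genes. An unadjusted p under 0.05 was found for 22 members and for 35.3% of all genes. The median difference of the members was -0.03 and that of all genes -0.02, while the median size of the difference, sign aside, was 0.165 for the members and 0.07 for all genes. The changes were moderate, from a fall of 1.38-fold for Cdh8 to a rise of 1.54-fold for Pcdh18. Leaving out the beta protocadherins, 13 of 26 tested members passed, 5 higher and 8 lower.

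**Figure D1:**
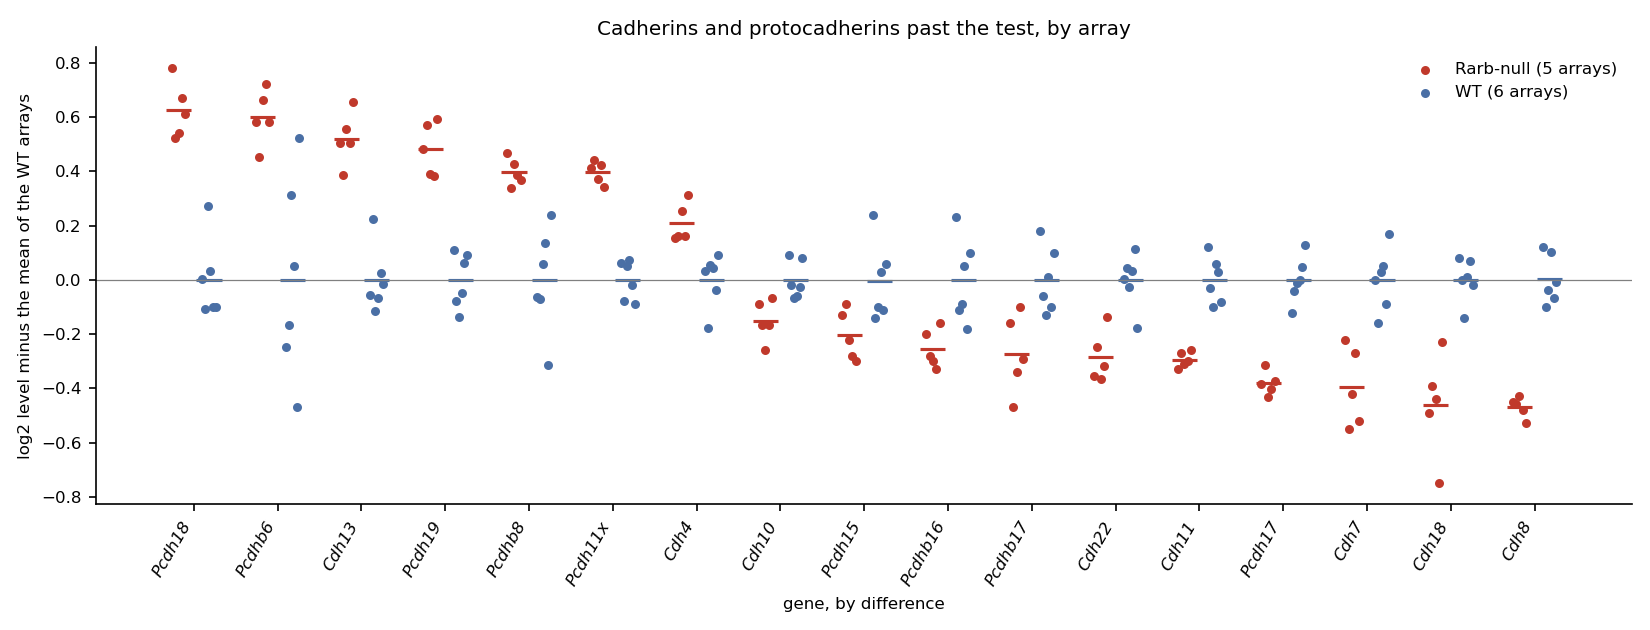
Log2 level of each of the 17 members past the test, minus the mean of its 6 WT arrays, with 1 point per array (Rarb-null left, WT right) and bars at the group means. The genes run from Pcdh18 with the largest rise (0.62) to Cdh8 with the largest fall (-0.47), and WT arrays of Pcdhb6 spread more widely than those of the other genes.

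Of 13 type II cadherins on the array 12 were tested, of which 6 fell and 0 rose, where 12% of all genes were lower and 19.6% were called. Their median difference was -0.165, and 6 of the 12 had an unadjusted p under 0.05, as had 35.3% of all genes. When the probe sets of a gene were averaged, Cdh24 was called higher. Cdh8, a cadherin of particular neuron groups of cortex and striatum in mice, read 10.25, 10.24, 10.27, 10.22 and 10.17 in the Rarb-null arrays, against a lowest value of 10.60, a median of 10.67 and a highest value of 10.82 in WT arrays. The groups lay well apart, and the difference was -0.47 (SE 0.043, limma adjusted p = 8.02e-06). Cdh11, its neighbour in the genome with no protein-coding gene between them, read 10.08, 10.14, 10.10, 10.11 and 10.15 in Rarb-null arrays, against 10.31, 10.41 and 10.53 as the lowest, median and highest WT values. It fell by 0.29 (SE 0.040, limma adjusted p = 0.000246) with no overlap. Cdh5, the cadherin of endothelial junctions and the next gene after Cdh11, gave -0.02 (95% interval -0.12 to 0.07).

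Cdh18 read 8.22, 8.32, 8.27, 7.96 and 8.48 in Rarb-null arrays, against a lowest value of 8.57, a median of 8.72 and a highest value of 8.79 in WT. All null arrays were below all WT arrays, with replicate 4 the lowest, and the difference was -0.46 (SE 0.074, limma adjusted p = 0.000902). A second probe set of the gene, fitted on its own, gave -0.41 (SE 0.088). Cdh7 read 9.30, 8.97, 9.10, 9.25 and 9.00 in Rarb-null arrays, against 9.36, 9.53 and 9.69 as the lowest, median and highest WT values. The groups again did not overlap (-0.40, SE 0.069, limma adjusted p = 0.00161).

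Cdh22 read 9.10, 9.21, 9.09, 9.14 and 9.32 in Rarb-null arrays, against 9.28, 9.48 and 9.57 as the lowest, median and highest WT values. Null replicate 5 lay above 1 WT array, and the difference was -0.28 (SE 0.053, limma adjusted p = 0.00273). Cdh10 gave the smallest fall of these genes, with 9.71, 9.63, 9.54, 9.63 and 9.73 in Rarb-null arrays and 9.73, 9.78 and 9.89 as the lowest, median and highest WT values. The highest null array and the lowest WT array were level to the second decimal (-0.15, SE 0.043, limma adjusted p = 0.0298). The call of Cdh10 was lost in 9 of 23 alternatives (adjusted p 0.0217 to 0.173 over all of them), among them the leaving out in turn of Rarb-null replicate 2, 3 or 4 and of WT replicate 1 or 6. It was also lost with centring, repeated quantile normalisation and cyclic loess (limma adjusted p = 0.0692, 0.0666 and 0.0706). With the mean level of oligodendrocyte markers in the model the adjusted p was 0.173 (limma).

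Cdh6, Cdh9, Cdh10, Cdh12 and Cdh18 stand in this order on 1 chromosome, with at most 1 other protein-coding gene between neighbours, and Cdh10 and Cdh18 were the ones that passed. Cdh9 gave 0.03 (95% interval -0.08 to 0.15), and WT replicate 3 was its lowest WT array at 9.27. Cdh12 varied widely within the genotypes, with 8.08, 7.75, 7.84, 7.73 and 8.35 in Rarb-null arrays, against a lowest value of 7.74, a median of 8.08 and a highest value of 8.68 in WT. The groups overlapped almost wholly (-0.18, 95% interval -0.54 to 0.17). Cdh6 read 8.51, 8.42, 8.34, 8.43 and 8.71 in Rarb-null arrays, against 8.41, 8.57 and 8.88 as the lowest, median and highest WT values (-0.12, 95% interval -0.32 to 0.07). The remaining type II genes tested, Cdh24 (0.10, 95% interval -0.06 to 0.26) and Cdh20 (-0.04, 95% interval -0.16 to 0.08), did not pass with the brightest probe set of each gene. A second probe set of Cdh24 gave 0.15 (SE 0.051), and the mean of both gave 0.13 (SE 0.039, limma adjusted p = 0.0368), past the threshold.

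**Figure D2:**
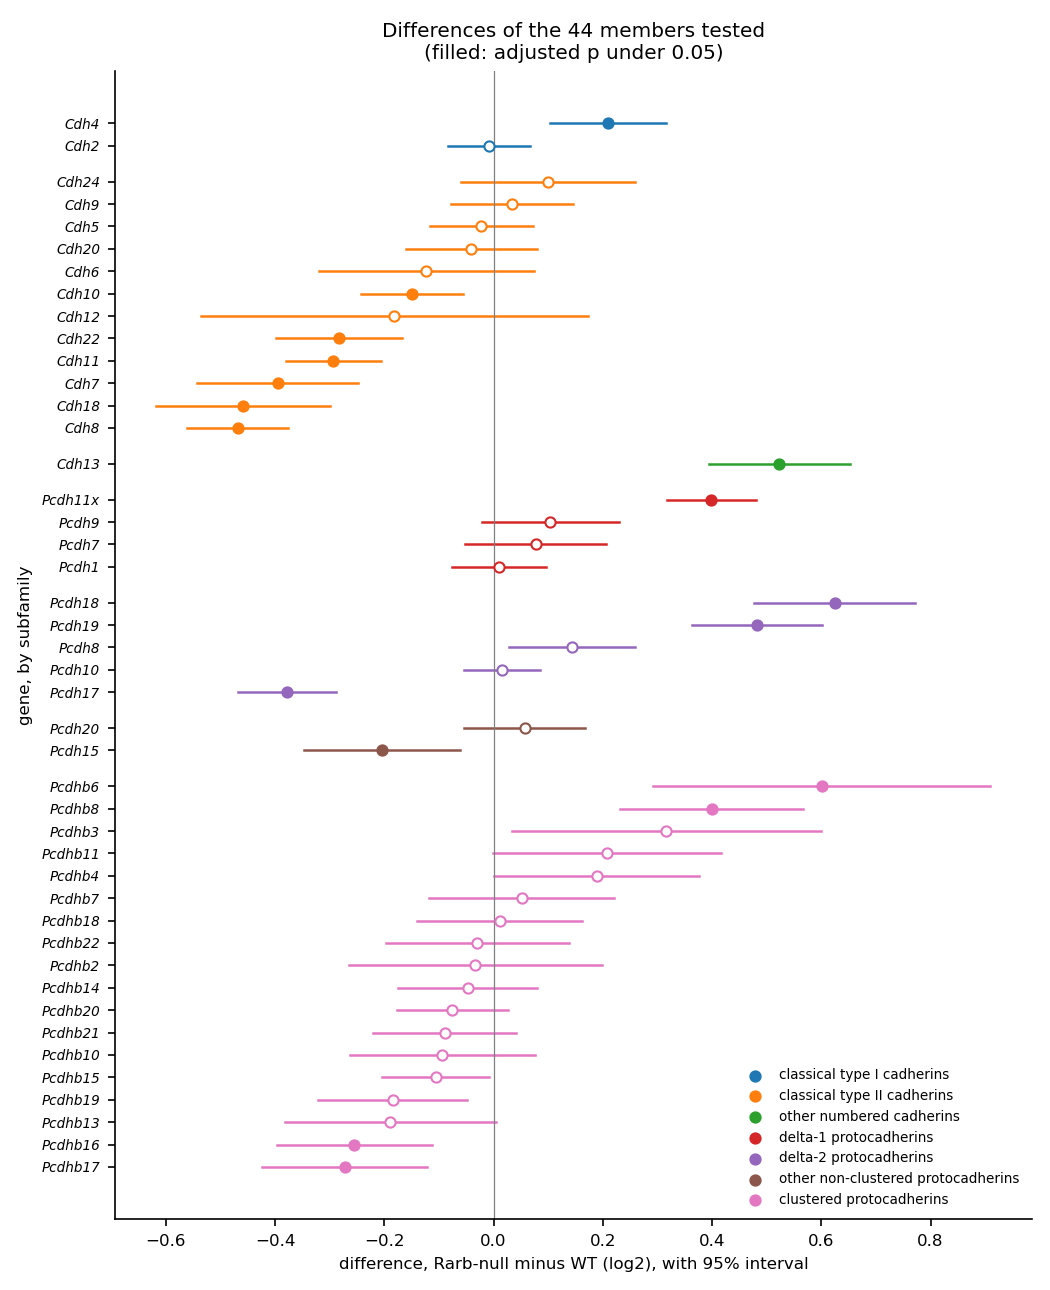
Difference of each of the 44 tested members, Rarb-null minus WT on the log2 scale, with its 95% interval, by subfamily. Filled points passed an adjusted p of 0.05. The 6 filled type II cadherins lie left of 0, and the delta-2 protocadherins lie on both sides, from -0.38 for Pcdh17 to 0.62 for Pcdh18.

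Of the type I cadherins, Cdh2 and Cdh4 were tested. Cdh2, which encodes N-cadherin of neuronal and glial contacts, read 10.86 to 11.01 in Rarb-null and 10.88 to 11.00 in WT arrays, a difference of -0.01 (95% interval -0.08 to 0.07). A change of Cdh2 as large as that of any called type II gene lies outside this interval. Cdh4, which encodes R-cadherin, rose. It read 9.56, 9.57, 9.66, 9.57 and 9.72 in Rarb-null arrays, against 9.23, 9.44 and 9.50 as the lowest, median and highest WT values, with no overlap (0.21, SE 0.049, limma adjusted p = 0.0108).

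Cdh13, which encodes T-cadherin, a cadherin held in the membrane by a lipid anchor in place of a cytoplasmic tail, rose in Rarb-null arrays. It read 10.35, 10.23, 10.40, 10.35 and 10.50, against a lowest value of 9.73, a median of 9.81 and a highest value of 10.07 in WT arrays. The groups did not overlap, and Rarb-null replicate 5 and WT replicate 2 were the highest of their genotypes (0.52, SE 0.060, limma adjusted p = 5.34e-05). The other numbered cadherins outside the classical types, Cdh16, Cdh17, Cdh23 and Cdh26, were below the filter.

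Of 5 delta-2 protocadherins tested, 2 rose and 1 fell (60% called, against 19.6% of all genes). Pcdh18 had the largest rise of all tested members, with 9.01, 8.75, 8.77, 8.90 and 8.84 in Rarb-null arrays, against a lowest value of 8.12, a median of 8.18 and a highest value of 8.50 in WT. WT replicate 3 was the highest WT array and still below every null array (0.62, SE 0.068, limma adjusted p = 3.61e-05). Pcdh19, whose human counterpart is mutated in an X-linked epilepsy, read 9.12, 9.21, 9.03, 9.02 and 9.23 in Rarb-null arrays, against 8.50, 8.65 and 8.75 as the lowest, median and highest WT values. It rose by 0.48 (SE 0.055, limma adjusted p = 5.42e-05) with no overlap.

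Pcdh17, a protein of synapses in cortex and basal ganglia of mice, fell. It read 10.00, 10.07, 9.95, 9.98 and 10.01 in Rarb-null arrays, against a lowest value of 10.26, a median of 10.37 and a highest value of 10.51 in WT (-0.38, SE 0.042, limma adjusted p = 3.77e-05), with no overlap. Pcdh10, known in mice for the growth of striatal axons, gave a difference near 0 with a narrow interval (0.01, 95% interval -0.05 to 0.08). Pcdh8, known as an activity-induced gene of neurons, did not pass in the fit over all arrays (0.14, SE 0.053, limma adjusted p = 0.0746), but did with arrays centred on their medians (0.18, SE 0.052, limma adjusted p = 0.0248) and without Rarb-null replicate 3 (0.18, SE 0.051, limma adjusted p = 0.0383).

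Pcdh17 lies on the chromosome of Rarb, as do Cdh24, Pcdh8, Pcdh20 and Pcdh9. In the RefSeq order 377 protein-coding genes separate Rarb from Cdh24 and 665 separate it from Pcdh17. Pcdh8, Pcdh17, Pcdh20 and Pcdh9 stand close together there, with at most 2 protein-coding genes between neighbours, and Pcdh17 was the one of the 4 that passed. Pcdh20 gave 0.06 (95% interval -0.05 to 0.17). Pcdh18 and Pcdh10 are likewise neighbours, with 1 protein-coding gene between them, and only Pcdh18 passed. The difference between the genes was not tested.

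Of 4 delta-1 protocadherins tested, Pcdh11x rose and 0 fell (25% called, against 19.6% of all genes). It read 10.44, 10.47, 10.40, 10.45 and 10.37 in Rarb-null arrays, against 9.94, 10.04 and 10.10 as the lowest, median and highest WT values. Both groups were tight and apart (0.40, SE 0.038, limma adjusted p = 1.03e-05). Pcdh9 (0.10, 95% interval -0.02 to 0.23), Pcdh7 (0.08, 95% interval -0.05 to 0.21) and Pcdh1 (0.01, 95% interval -0.08 to 0.10) did not pass. The second probe set of Pcdh9 gave 0.09 (SE 0.049).

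Pcdh15, known from the links within the hair bundle of inner ear cells, read 7.77, 7.81, 7.68, 7.62 and 7.60 in Rarb-null arrays, against 7.76, 7.87 and 8.14 as the lowest, median and highest WT values. Its groups overlapped, and it passed narrowly (-0.20, SE 0.066, limma adjusted p = 0.0457). A second, dimmer probe set of Pcdh15 gave -0.02 (SE 0.052). The call was lost in 14 of 22 alternatives (adjusted p 0.027 to 0.37 over all of them), among them the leaving out in turn of Rarb-null replicate 3, 4 or 5 and of WT replicate 1, 4 or 6. It was also lost with no filter, centring, repeated quantile normalisation, cyclic loess and averaged probe sets. With the mean level of oligodendrocyte markers in the model Pcdh15 gave -0.125 (SE 0.076, limma adjusted p = 0.306).

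All 22 clustered protocadherins among the members were of the beta cluster, since the alpha genes shared a probe set annotated to several genes, which the rule leaves out, and the annotation used named no gamma gene. The beta genes are near copies of each other, and how far a probe set reads its own gene alone was not tested. Of 18 tested, 2 rose and 2 fell, or 22.2%, beside 19.6% of all genes. Pcdhb6 read 9.29, 9.16, 9.37, 9.43 and 9.29 in Rarb-null arrays, against 8.46, 8.54, 9.02, 8.76, 8.24 and 9.23 in WT replicates 1 to 6. The WT arrays spread over almost 1 log2 unit while the null arrays were tight, and WT replicate 6 lay above the lowest null array (0.60, SE 0.143, limma adjusted p = 0.0117). The call was lost with the mean level of oligodendrocyte markers in the model (0.46, adjusted p = 0.107). Pcdhb8 read 8.18, 8.05, 8.14, 8.10 and 8.08 in Rarb-null arrays, against 7.65, 7.64, 7.77, 7.85, 7.40 and 7.95 in WT replicates 1 to 6. Here the groups did not overlap (0.40, SE 0.078, limma adjusted p = 0.00336).

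Pcdhb3, a nearer gene to the start of the cluster, did not pass. It read 7.98, 7.98, 8.12, 8.13 and 8.20 in Rarb-null arrays, against 7.52, 7.47, 8.14, 7.60, 7.63 and 8.24 in WT replicates 1 to 6. WT replicates 3 and 6 stood at the level of the null arrays and the other WT arrays below all of them (0.32, SE 0.132, limma adjusted p = 0.105). Without WT replicate 3 or without WT replicate 6 the gene was called (0.39, adjusted p = 0.0433, and 0.41, adjusted p = 0.0223). In Pcdhb6 the same pair, WT replicates 3 and 6, were the highest WT arrays, and in Pcdhb8 replicates 4 and 6 were.

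Pcdhb16 and Pcdhb17, which adjoin each other in the cluster, both fell. Pcdhb16 read 8.01, 7.93, 7.91, 7.88 and 8.05 in Rarb-null arrays, against a lowest value of 8.03, a median of 8.19 and a highest value of 8.44 in WT (-0.25, SE 0.066, limma adjusted p = 0.0175). Pcdhb17 read 7.45, 7.14, 7.27, 7.51 and 7.32 in Rarb-null arrays, against 7.48, 7.58 and 7.79 in WT (-0.27, SE 0.070, limma adjusted p = 0.017), as the lowest, median and highest WT values. Both genes had 1 or more null arrays within the WT range, and both calls were lost with the mean level of cortical projection neuron markers in the model (Pcdhb16 -0.23, SE 0.089, adjusted p = 0.111, and Pcdhb17 -0.25, SE 0.095, adjusted p = 0.103). The differences changed little in that fit, while the SEs were larger. Of the beta genes not called, Pcdhb19 had the smallest p (-0.18, SE 0.063, adjusted p = 0.0557). It was called without WT replicate 2 (adjusted p = 0.0479) and without Rarb-null replicate 3 (adjusted p = 0.0473) or 4 (adjusted p = 0.0361). Pcdhb4 (0.19), Pcdhb11 (0.21), Pcdhb13 (-0.19) and Pcdhb15 (-0.11) followed after Pcdhb3, and the 8 other tested beta genes gave differences from -0.09 to 0.05 with adjusted p from 0.269 to 0.924.

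**Figure D3:**
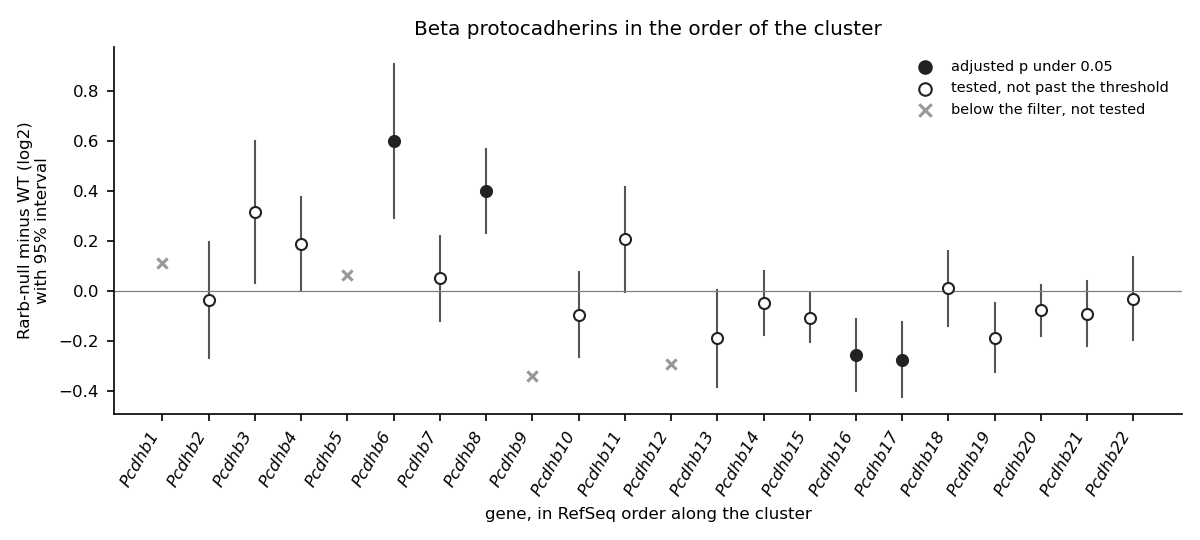
Difference of each beta protocadherin, Rarb-null minus WT on the log2 scale with its 95% interval, in the RefSeq order of the 22 genes along the cluster. Filled points passed an adjusted p of 0.05, open points did not and crosses were below the filter. The filled rises (Pcdhb6 and Pcdhb8) lie in the first part of the cluster and the filled falls (Pcdhb16 and Pcdhb17) in the later part.

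The 13 members below the filter had overall means from 5.01 to 6.88. They were Cdh1, Cdh3, Cdh15, Cdh16, Cdh17, Cdh19, Cdh23, Cdh26, Pcdh12, Pcdhb1, Pcdhb5, Pcdhb9 and Pcdhb12. With no filter, 3 of these 13 passed, beside 2507 of all 19938 genes in the same fit. Cdh19, a type II cadherin adjoining Cdh7, read 6.45, 6.06, 6.03, 6.09 and 6.40 in Rarb-null arrays, against 6.46, 6.67 and 6.79 as the lowest, median and highest WT values (-0.44, SE 0.085, limma adjusted p with no filter 0.00485). Cdh23, the partner of Pcdh15 in the hair bundle, read 6.54, 6.59, 6.56, 6.53 and 6.65 in Rarb-null arrays, against 6.24, 6.34 and 6.47 as the lowest, median and highest WT values (0.23, SE 0.043, limma adjusted p with no filter 0.00434). Neither gene had overlapping groups. Pcdhb12 gave -0.29 (SE 0.085, limma adjusted p with no filter 0.0419).

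Markers of cortical projection neurons were higher in Rarb-null arrays. The mean level of 12 of 14 listed cortical markers on the array was 8.96, 8.81, 8.87, 8.80 and 9.43 in Rarb-null arrays, against 8.45, 8.95, 8.21, 8.27, 8.81 and 8.54 in WT replicates 1 to 6 (difference 0.44, exact two-sided permutation p = 0.0303). Rarb-null replicate 5 and WT replicates 2 and 5 were the highest of their genotypes here, as they were for Cdh12 and Cdh6. Of the 11 markers tested, 4 rose (Emx1, Fezf2, Cux2 and Mef2c). With the marker level in the model, Cdh12 was lower in Rarb-null arrays by a difference of -0.66 (SE 0.081, limma adjusted p = 0.000192) and Cdh6 by -0.38 (SE 0.060, limma adjusted p = 0.00145). Neither had passed without it. With Rarb-null replicate 5 and WT replicates 3 and 4 left out, and no marker level in the model, neither passed (Cdh12 -0.45, limma adjusted p = 0.0749, and Cdh6 -0.26, limma adjusted p = 0.0921). WT arrays other than replicates 2 and 5 lay below all Rarb-null arrays in marker level, so the fit separates marker level from genotype poorly. Cdh13 stayed higher with the marker level in the model (0.37, SE 0.050, limma adjusted p = 0.000345), as did Pcdh18 (0.72, limma adjusted p = 9.63e-05), Pcdh19 (0.43, limma adjusted p = 0.00187), Pcdh11x (0.47, limma adjusted p = 1.68e-05) and Cdh4 (0.24, limma adjusted p = 0.0332). Cdh8 stayed lower (-0.40, SE 0.049, limma adjusted p = 0.000219), as did Cdh18, Cdh7, Cdh11, Cdh22, Cdh10 and Pcdh17 (adjusted p 0.000687 to 0.0474). Pcdh15 gave -0.12 in this fit and did not pass (SE 0.082, limma adjusted p = 0.37), as Pcdhb16 and Pcdhb17 did not.

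**Figure D4:**
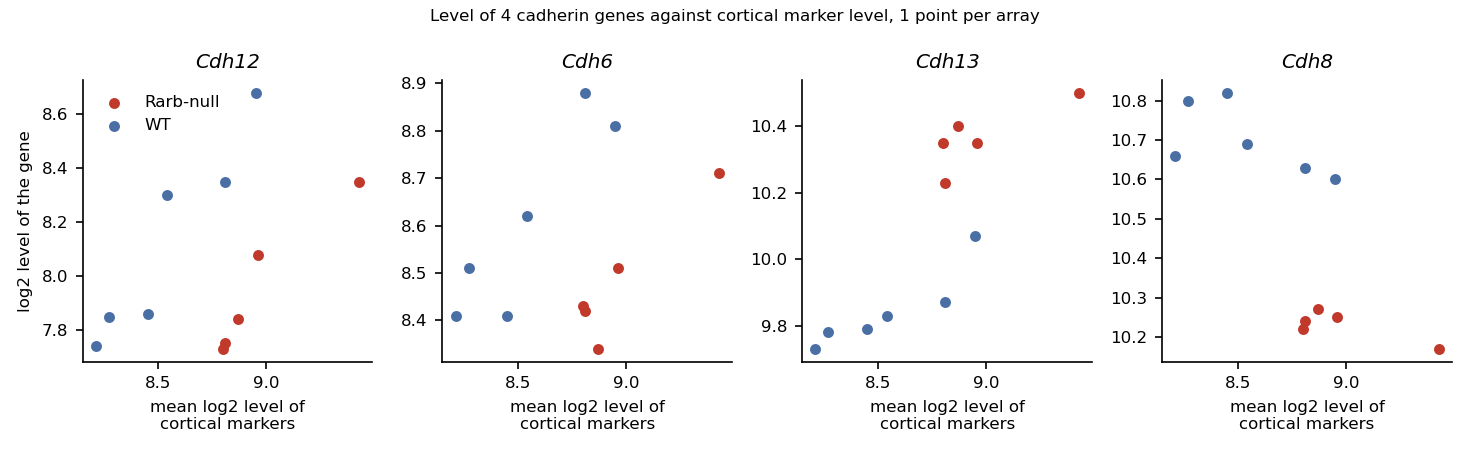
Log2 level of Cdh12, Cdh6, Cdh13 and Cdh8 against the mean log2 level of 12 cortical projection neuron markers, with 1 point per array (5 Rarb-null, 6 WT). Of the WT arrays, replicates 2 and 5 alone (8.95 and 8.81) reach the marker levels of the Rarb-null arrays (8.80 to 9.43). At like marker levels the Rarb-null arrays lie below these WT arrays for Cdh12 and Cdh6. For Cdh8 all null arrays (10.17 to 10.27) lie below all WT arrays (10.60 to 10.82).

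Of the striatal projection neuron markers, 8 of 12 fell and 0 rose. Oligodendrocyte lineage markers averaged 9.29 to 9.49 in Rarb-null and 9.39 to 9.57 in WT arrays over 11 of 12 genes, of which 4 fell. Astrocyte markers averaged 10.14 to 10.22 in Rarb-null and 10.20 to 10.29 in WT arrays over 9 genes, of which 1 rose and 3 fell. Interneuron markers ran from 8.90 to 9.19 in Rarb-null and from 8.73 to 9.03 in WT arrays over 12 genes, with 4 rises and 3 falls among 10 tested. Markers of endothelial and mural cells (8.10 to 8.28 in Rarb-null and 8.15 to 8.31 in WT arrays) and of microglia (8.67 to 8.86 in Rarb-null and 8.75 to 8.91 in WT arrays) gave 0 calls among 11 and 7 tested genes in the limma fit, with 1 and 3 at an unadjusted p under 0.05. Markers of meningeal, choroid plexus and ependymal cells ran from 6.60 to 6.64 in Rarb-null and from 6.51 to 6.66 in WT arrays. Of the 5 tested, 2 rose and 1 fell (60%, against 19.6% of all genes). Markers of septum and pallidum ran from 7.58 to 7.84 in Rarb-null and from 7.51 to 7.70 in WT arrays. Of the 5 tested, 1 rose and 0 fell (20%). The part of these lists in the results was not tested, apart from the fits with cortical or oligodendrocyte marker level.

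Of 19 tested genes of catenins and adherens junctions, the partners of classical cadherins, 1 rose and 2 fell (15.8%, against 19.6% of all genes), with a median difference of -0.01. Beta-catenin, encoded by Ctnnb1, gave 0.03 and the delta-catenin gene Ctnnd2 0.04, neither past the test. Nectin3, which encodes an adhesion protein that acts beside cadherins, fell to 8.02 ± 0.07 in Rarb-null arrays, against 8.23 ± 0.04 in WT arrays (SD, n = 5 and 6; -0.20, SE 0.037, limma adjusted p = 0.00227). Pkp2, which encodes plakophilin of desmosomes, fell by 0.30 (SE 0.054, limma adjusted p = 0.00238), and Nectin4 rose by 0.22 (SE 0.074, limma adjusted p = 0.0479). The call of Nectin4 was lost in 17 of 22 alternatives, 9 of them with 1 array left out (adjusted p 0.0196 to 0.621 over all of them).

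Of the other cadherin superfamily genes, 13 were tested, 2 rose and 1 fell (23.1%), with a median of -0.02. Celsr1, a gene of planar cell polarity, rose by 0.20 (SE 0.033, limma adjusted p = 0.00111). Fat4, a giant cadherin of growth control, rose by 0.27 (SE 0.050, limma adjusted p = 0.00264), and its relative Fat3 fell by 0.17 (SE 0.046, limma adjusted p = 0.0205). With cortical marker level in the model neither Fat4 nor Fat3 passed (adjusted p = 0.0533 and 0.238), and Fat3 lost its call in 4 further alternatives, among them centring and averaged probe sets. Among 12 tested signalling partners of protocadherins, 1 rose (8.33%, median 0.04). This was Cyfip2, a subunit of the WAVE complex that drives actin branching, at 12.18 ± 0.05 in Rarb-null and 11.95 ± 0.06 in WT arrays (0.23, SE 0.036, limma adjusted p = 0.000821).

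Of 11 tested regulators of the clustered protocadherins, which include the DNA-looping factors CTCF and cohesin, 2 fell and 0 rose (18.2%, against 19.6% of all genes). An unadjusted p under 0.05 was found for 7 of the 11 and for 35.3% of all genes. Among these 7 was Rest, which was higher in Rarb-null arrays (0.13, SE 0.052, limma adjusted p = 0.0968). The median difference of the list was -0.12. Wapl, which releases cohesin from DNA, fell by 0.22 (SE 0.059, limma adjusted p = 0.0199), and the cohesin subunit gene Stag2 fell by 0.19 (SE 0.060, limma adjusted p = 0.0451). The call of Stag2 was lost in 15 of 23 alternatives (adjusted p 0.0136 to 0.204) and that of Wapl in 4 of 23 (adjusted p 0.00255 to 0.103). Ctcf itself gave -0.12 (SE 0.042, limma adjusted p = 0.0626). The number of falls in this list moved with the setting, from 0 to 5.

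Outside the family, the genes whose values over the 11 arrays were most like those of Pcdh18, the member with the largest difference, were Rskr (Pearson r = 0.97), Fhit (0.967) and Mavs (0.966). All 3 also differed between the genotypes (0.58, 0.85 and 0.24), so that the likeness contains the genotype difference.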

How the data were processed

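RNA of the nucleus accumbens of 5 Rarb-null and 6 WT mice was read on 11 arrays, 1 per mouse. The deposited values are log2 levels that the authors obtained with RMA, as named in the submitters' processing notes, and the base of the log was inferred from their range. RMA subtracts background, equalises the arrays and summarises probes, which compresses differences of dim genes. No source used here gave the software version or the set of arrays normalised jointly, and no batch or scan date was used.

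Gene names came from a platform annotation, updated by Entrez identifier against RefSeq (GRCm38.p6), for 21789 of 35556 probe sets with 1 symbol. Genes above the 40th percentile (11963 of 19938) were compared with limma 3.58.1 in R 4.3.3 (eBayes after lmFit on genotype alone, Benjamini-Hochberg adjustment over all of them, threshold 0.05). The exact permutation test used all 462 splits. On simulated data for Rarb-null against WT over 11963 genes, 81 of 100 genes changed by 0.25 and 98 of 100 changed by 0.5 were called, with 7 calls among 11763 unchanged genes. The simulated noise was independent between genes, with no variation shared within an array. These counts therefore do not give the error rate of the comparison of the real arrays. Figures used matplotlib 3.10.9 in Python 3.11.15.

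The members and lists were chosen with earlier results of these data known. By the rule for names, every member could be named, with full values for up to 14 called members by size of difference, beside up to 4 called genes of each partner list and the 3 genes most like the member with the largest difference. Full values of Cdh4, Cdh10, Pcdh15, Cdh6, Cdh12, Pcdhb3, Cdh19 and Cdh23, and the names Ctnnb1, Ctnnd2 and Ctcf, were added after their values were seen. Alternatives were other filters, centring, repeated quantile and cyclic loess normalisation, weighted arrays, a replicate block, averaged probe sets, a trended robust variance, cortical or oligodendrocyte marker covariates, and leaving out arrays.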

Additional observations from a re-analysis of the deposited data

Results flagged for a closer look

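Among 90 groups of arrays, counting 44 tested members and Rarb in each genotype, 6 single values stood apart from the rest of their group by Dixon's criterion at the 95% level, where chance gives about 1 in 20. In Rarb-null replicate 2, Pcdhb7 read 7.44 (7.70 to 7.80 in the other null arrays) and Pcdhb2 read 7.42 (7.75 to 7.84). Cdh24 read 7.09 in WT replicate 6 (7.27 to 7.36 in the other WT arrays) and Cdh20 read 7.81 in WT replicate 5 (7.58 to 7.66). Cdh9 read 9.27 in WT replicate 3 (9.46 to 9.53) and Pcdhb20 read 7.83 in WT replicate 4 (7.66 to 7.72). None of these 6 genes passed the test of the genotypes in the fit over all arrays.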

How the results depend on the processing

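Over all alternatives, 6 to 10 members were higher and 7 to 11 lower in Rarb-null arrays, with 8 and 8 when arrays were centred on their medians. Of the 17 called members, 12 kept their call in every alternative that tested them. The exceptions were Cdh10, Pcdh15, Pcdhb6, Pcdhb16 and Pcdhb17, and 0 of the called members turned sign. Pcdhb17 also lost its call when Rarb-null replicate 5 and WT replicates 3 and 4 were left out, and Pcdhb16 with oligodendrocyte marker level. These 3 arrays were the highest of the Rarb-null arrays (9.43) and the lowest of the WT arrays (8.21 and 8.27) in cortical marker level. With 5 and 6 arrays, single genes near the threshold are not settled, and dim probe sets are limited by their signal over background. The cause of the changes listed here was not tested.

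Among all genes, the calls higher and lower in Rarb-null arrays numbered 1677 and 939 with centring, 424 and 882 with cortical marker level, 387 and 879 with oligodendrocyte marker level, and 472 and 870 without the same 3 arrays. With the filter at the 60th percentile 510 genes were higher. Over all fits that left out these 3 arrays or 1 array, the ranges were 472 to 1012 higher and 870 to 1570 lower.

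Counts in the partner lists were small and moved. Catenin and junction genes called higher numbered 3 with centring and 0 with array weights, either marker level, the 60th percentile filter, no filter or the same 3 arrays left out (0 to 1 with 1 array left out), and those lower numbered 0 at the 60th percentile. Other superfamily genes called higher numbered 0 at the 60th percentile. Those lower numbered 2 with array weights or no filter, and 0 with cortical marker level, centring, the mean of probe sets or the 3 arrays left out (0 to 2 with any left out). Signalling partners called higher numbered 2 with array weights, centring, repeated quantile normalisation or a trended variance (1 to 2 with 1 array left out). Regulators called lower numbered 0 with either marker level, 1 with centring, cyclic loess, repeated quantile normalisation, no filter or the 3 arrays left out, and 5 with a trended variance (0 to 4 with 1 array left out). With centring 1 regulator was higher.

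Signs turned only for members that did not pass. Cdh2 gave 0.032 with centring, 0.01 with repeated quantile normalisation and 0.011 with cyclic loess (-0.032 to 0.006 with arrays left out). The ranges in brackets for Cdh2, Cdh5, Cdh9 and Pcdh1 cover the fits without 1 array and the fit without the 3 arrays. Cdh5 gave 0.017 with centring and 0.012 with array weights (-0.057 to 0.01). Cdh9 gave -0.053 with cortical marker level and -0.015 without the 3 arrays (-0.015 to 0.052). Pcdh1 gave -0.005 with cyclic loess and with oligodendrocyte marker level (-0.015 to 0.035). Pcdh10 ran from -0.004 to 0.041 with arrays left out. Cdh24 gave -0.032 and Pcdh20 -0.042 with cortical marker level, Pcdh20 -0.014 without the 3 arrays (up to 0.083 with 1 array left out), and Cdh20 0.001 with oligodendrocyte marker level.

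The titles number the arrays alike in both genotypes. The deviations of same-numbered arrays correlated at 0.257, 0.056, 0.255, 0.188 and 0.425, all positive. Of the 5 Rarb-null arrays, 2 correlated best with their own number. No batch is stated in the labels, and the fit over all arrays (905 genes higher and 1436 lower) left the numbers out. Whether same-numbered arrays share a batch or a litter was not tested, so that fit can miss variation that they share. With the replicate number as a block, 10 members were higher and 11 lower, as were 1079 and 1793 of all genes, and Pcdhb3 (0.41, adjusted p = 0.00716), Pcdhb4 (0.23, adjusted p = 0.0242), Pcdhb11 (0.25, adjusted p = 0.0349) and Pcdhb19 (-0.18, adjusted p = 0.046) were called. This made 8 of 18 beta genes called (44.4%), beside 2872 of 11963 genes in all. Pcdhb11 was also called with array weights (0.26, adjusted p = 0.0482). The block gave 2 other superfamily genes and 4 regulators lower.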
